A study of Mus musculus with 6 samples.

Results

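The genes described here are the 7 inhibitors of cyclin-dependent kinases of the Cip/Kip and Ink4 families, Cdkn1a, Cdkn1b, Cdkn1c, Cdkn2a, Cdkn2b, Cdkn2c and Cdkn2d, and the 3 D-type cyclins, Ccnd1, Ccnd2 and Ccnd3. They were chosen by symbol, as 3 gene families of G1 control, and are 10 of the 32285 genes in the deposited tables. Organoids were grown for 15 days from esophageal basal cells of C57BL6 mice that were positive for integrin-b1 and negative for DAPI, a dye that enters dead cells. The founders had been sorted by Cyto-ID, a dye that stains autophagic vesicles, into Cyto-ID Low and Cyto-ID High. Each group gave 3 droplet 3′ single-cell libraries, labelled F2, M3 and F6. Both groups were grown in the same medium, which held EGF, Noggin and R-Spondin and the ROCK inhibitor Y27632, and no gene was altered in either. Cyto-ID describes the founding cells, not the cells sequenced, and the labels do not say whether libraries came from separate animals, so p-values measure only the spread between these libraries.

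Passage through G1 is driven by Cdk4 and Cdk6 bound to D-type cyclins and then by Cdk2 bound to E-type cyclins, which together phosphorylate the retinoblastoma proteins and release E2F factors. The Ink4 proteins, products of the Cdkn2 genes, bind Cdk4 and Cdk6 and block their pairing with D-type cyclins. The Cip/Kip proteins, products of the Cdkn1 genes, bind assembled complexes and inhibit mainly those of Cdk2. In stratified epithelia such as the esophagus, basal cells divide, and their daughters leave the cycle as they move up and begin to make the suprabasal keratins.

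Cells with at least 500 detected genes were kept, 25154 of 26808 barcodes, with 152075756 UMIs (unique molecular identifiers, 1 per captured transcript). The median number of UMIs per cell ran from 1940.5 in Cyto-ID High F6 to 10038 in Cyto-ID High F2, and pairs of libraries shared between 0 and 10 barcodes. Cycling cells were those with UMIs of at least 2 of the 4 genes Top2a, Mki67, Birc5 and Ube2c. There were 2627 of them, between 90 in Cyto-ID Low F6 and 670 in Cyto-ID High F2. In every library they had more UMIs than the other cells, with medians of 2811 to 13760.5 against 1851 to 9600. Other cells are all those that missed this rule. They can include dividing cells, among them cells in G1, so the contrast is not one of dividing with resting cells. Layers were 3 ranges of the keratin share, that is, the share of Krt4 and Krt13 among the UMIs of Krt4, Krt13, Krt5, Krt14 and Krt15. The basal range lay below 1.98%, the differentiated range above 21.26% and the middle range between them, each holding the same share of cells over the libraries weighted equally. These are ranges, not cell types: 1495 cells lay within 0.5 percentage points of the lower cut and 136 within that of the upper. Within 2 percentage points, a width that takes in the whole basal range, the counts were 10814 and 611, and 45.4% of kept cells lay near a cut. Basal genes outside the score such as Col17a1 (604 CPM in the basal and 64.1 in the differentiated range, where CPM are UMIs per 1000000 UMIs of a cell, averaged over cells) and superficial genes such as Cnfn (5.22 and 275 CPM) followed the ranges, whereas the basal marker Sox2 did not (70.2 and 78.4 CPM). The middle range was close to the basal range in Col17a1 (469 CPM) and Krt14 (13010 against 11818 CPM). Krt13, part of the score, stood at 67.3 CPM in the basal and 1552 CPM in the middle range. All these values are of other cells, where the cycling marker Ube2c was still at 26.8 CPM in the basal, 25.5 in the middle and 8.68 in the differentiated range. The squamous label was checked against other cell types: Ptprc, Col3a1, Cdh5 and Dct had no UMI in any library, and the sums of the immune, fibroblast, endothelial and melanocyte markers reached at most 4.23 CPM. The simple-epithelial keratins Krt8 and Krt18 were present, with a sum (with Muc5ac) of 381 to 661 CPM in Cyto-ID Low and 102 to 404 CPM in Cyto-ID High libraries.

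The 10 genes lie on 5 chromosomes of the mouse genome build GRCm38. Cdkn2a (chromosome 4, 89274471 to 89294653, minus strand) and Cdkn2b (chromosome 4, 89306299 to 89311039, minus strand) are neighbours whose starts are 16.39 kb apart. Cdkn2a has alternative first exons that open the transcripts of p16Ink4a, an inhibitor of Cdk4 and Cdk6, and of p19Arf, which stabilises p53. Both share the downstream exons, so 3′ counts cannot tell them apart. RefSeq upstream windows of 250 bases on GRCm38.p6 were found for 7 of the 10 genes, with 11 windows in all. Entries for Cdkn1c, Ccnd1 and Ccnd2 were not found. The windows below belong to Cdkn1a, Cdkn2b and Cdkn2d, inhibitors whose levels differed between cell states, and to Cdkn2a, the member nearest to a call between Cyto-ID groups. Each is written 5′ to 3′ on the gene's strand and ends just before the start annotated in RefSeq. The starts in GENCODE differ: those of Cdkn1a (29090976), Cdkn2d (21291407), Cdkn2b (89311039) and Cdkn2a (89294653, in the p19Arf window) lie inside the windows. Part of each of these windows, and most of that of Cdkn2d, is thus within the GENCODE gene.
Cdkn1a, upstream start, chr17:29090729-29090978, plus strand: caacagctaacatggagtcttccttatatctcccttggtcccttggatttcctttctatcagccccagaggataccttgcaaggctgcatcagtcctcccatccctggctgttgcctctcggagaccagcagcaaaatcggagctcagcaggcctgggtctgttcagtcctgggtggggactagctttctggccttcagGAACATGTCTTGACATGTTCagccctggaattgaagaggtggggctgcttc
Cdkn2d, chr9:21291210-21291459, minus strand: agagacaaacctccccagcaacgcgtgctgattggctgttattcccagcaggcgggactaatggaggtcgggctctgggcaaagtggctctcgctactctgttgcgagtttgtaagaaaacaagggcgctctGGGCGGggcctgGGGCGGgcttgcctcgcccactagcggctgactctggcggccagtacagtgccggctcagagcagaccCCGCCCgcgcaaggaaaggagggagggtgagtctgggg
Cdkn2b, chr4:89311033-89311282, minus strand: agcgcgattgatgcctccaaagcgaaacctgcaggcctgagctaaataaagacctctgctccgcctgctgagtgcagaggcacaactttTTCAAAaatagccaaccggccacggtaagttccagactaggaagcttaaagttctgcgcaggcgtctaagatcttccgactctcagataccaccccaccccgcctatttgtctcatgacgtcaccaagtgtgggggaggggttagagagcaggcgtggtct
Cdkn2a, p19Arf start, chr4:89294620-89294869, minus strand: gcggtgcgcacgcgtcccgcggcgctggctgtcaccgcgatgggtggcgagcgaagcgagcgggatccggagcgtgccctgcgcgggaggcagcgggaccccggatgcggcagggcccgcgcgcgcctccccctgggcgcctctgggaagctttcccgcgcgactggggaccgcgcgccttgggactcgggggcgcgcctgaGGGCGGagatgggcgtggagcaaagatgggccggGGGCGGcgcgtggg
Cdkn2a, p16Ink4a start, chr4:89282193-89282442, minus strand: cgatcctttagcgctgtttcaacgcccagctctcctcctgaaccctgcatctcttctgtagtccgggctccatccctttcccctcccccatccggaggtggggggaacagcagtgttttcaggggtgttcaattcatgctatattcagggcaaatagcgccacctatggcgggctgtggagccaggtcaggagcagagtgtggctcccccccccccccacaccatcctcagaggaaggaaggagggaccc
Capitals in the Cdkn1a window mark a p53 element, searched as a pair of adjacent stretches of 10 bases (purines, then C, A or T, A or T, G, then pyrimidines) with at most 1 mismatch outside the cores. Such a match was found in 15 of 32851 windows (0.046%) on either strand, and among the members only in this window. Capitals in the Cdkn2d and Cdkn2a windows mark GGGCGG, a GC box, on either strand: the Cdkn2d window held 3 and the p19Arf window 2, and 32.7% of all windows held at least 1. Capitals in the Cdkn2b window mark TTTGAA, a cell-cycle element, on the opposite strand, where it reads TTCAAA on the gene strand; 16.0% of windows held it on either strand. The letters TTTCCCGC, an E2F site, were in the p19Arf window from base 152 to 159. A site of this kind (TTTGGCGC, TTTCGCGC, TTTCCCGC or TTTGGCGG) was in 1.96% of windows and in no other member's. These matches describe the letters only.

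All 10 genes were detected in every library and passed the filter of every comparison. Over all kept cells, Ccnd1 had 45006 UMIs, Cdkn1a 34913, Cdkn2b 22198, Ccnd2 19648, Cdkn1b 6834, Cdkn2d 3539, Ccnd3 3492, Cdkn2a 1957, Cdkn2c 964 and Cdkn1c 558. Values for Cdkn1c and Cdkn2c rest on few molecules: the 90 cycling cells of Cyto-ID Low F6 held 4 UMIs of Cdkn1c and 2 of Cdkn2c. Comparisons were fitted over all genes as log2 differences of CPM plus 1 after TMM scaling, which aligns libraries on the bulk of their genes, and a call needs a Benjamini-Hochberg adjusted p under 0.05 in limma. CPM values below are unscaled, and n = 6 libraries, or 3 per Cyto-ID group.

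In cycling cells, the Ink4 genes Cdkn2c and Cdkn2d and the cyclin Ccnd1 were higher than in other cells of the same library, while Cdkn1a, Cdkn2b and Ccnd2 were lower. These were 6 of 10 members, against 33.2% of all 12081 genes tested that passed (14.8% higher and 18.4% lower). With unscaled CPM 2968 of the 4317 genes that passed were higher, against 1790 of 4007 after scaling, and the median of all genes moved from -0.04 to 0.11. The members' median log2 difference was 0.03, against -0.04 over all genes. Cdkn2d, which encodes p19Ink4d, an inhibitor of Cdk4 and Cdk6 whose transcript is known to oscillate with the cycle, moved most. Its level in other cells ran from 13.2 CPM over a median of 16.5 to 28.0 CPM, and in cycling cells from 34.9 over 46.6 to 98.9 CPM. The ranges did not overlap, and M3 was the highest replicate of both groups. The fitted log2 difference was 1.31 ± 0.12 (SE; adjusted p = 2.7e-06), higher in 6 of 6 libraries. The cells were chosen by 4 cycling markers, and this choice partly fixes a rise of any gene expressed along with those markers. Cdkn2c, encoding p18Ink4c, stood at 2.05 to 5.86 CPM in other cells and at 4.44 to 15.7 CPM in cycling cells, with medians of 4.54 and 12.1 CPM. The difference of 1.06 ± 0.18 (adjusted p = 0.00053) was also seen in 6 of 6 libraries. After thinning to 1000 UMIs it was 0.63 where the median of all genes was -0.64, and did not pass (adjusted p = 0.59). Its cycling value in Cyto-ID Low F6, the lowest, rests on 2 UMIs.

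Cdkn2b, which encodes p15Ink4b, known as a target of TGF-beta signalling, went the other way. Other cells held 68.8 to 190 CPM with a median of 116 CPM, and cycling cells 28.7 to 85.2 CPM with a median of 60.5 CPM. Every library was lower in its cycling cells, and the log2 difference was -1.25 ± 0.08 (adjusted p = 6.7e-08). Cdkn1a, which encodes p21, the best known p53 target among the inhibitors, ran from 164 to 256 CPM in other cells (median 236 CPM) and from 121 to 307 CPM in cycling cells (median 173 CPM). It was lower in 5 of 6 libraries with a log2 difference of -0.51 ± 0.10 (adjusted p = 0.0018). The exception, Cyto-ID Low F6 at 307 CPM in cycling and 223 CPM in other cells, rests on 107 UMIs from 90 cycling cells. Without it the difference was -0.65 (adjusted p = 3.0e-07).

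**Figure D1:**
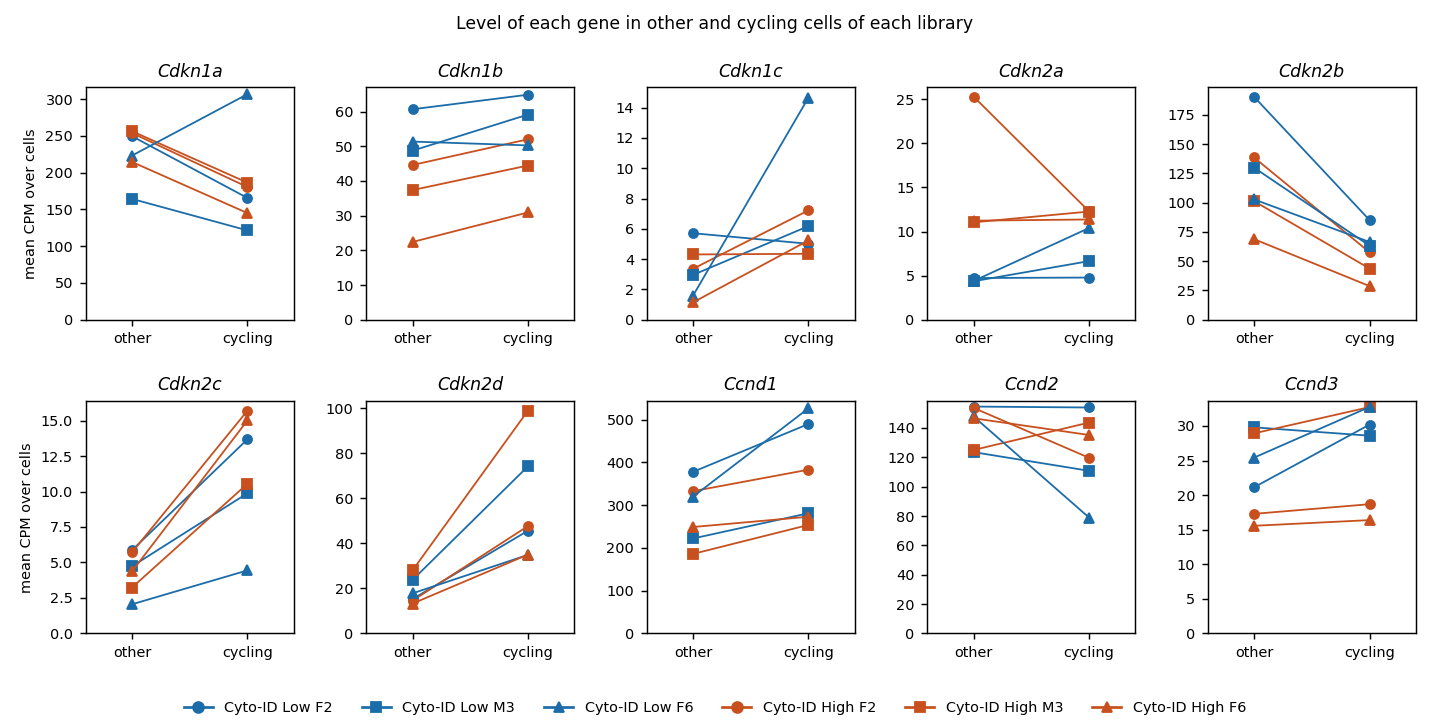
Mean CPM over cells (linear axis from 0) of each gene in other and in cycling cells, with 1 line per library joining its values; colour gives the Cyto-ID group and the symbol the replicate. Cdkn2d rises and Cdkn2b falls along all 6 lines, and Cdkn1a falls along 5 of 6, the exception being Cyto-ID Low F6.

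Of the D-type cyclins, the regulatory partners of Cdk4 and Cdk6, Ccnd1 was a little higher in cycling cells, with medians of 284 CPM in other and 332 CPM in cycling cells and a log2 difference of 0.20 ± 0.06 (adjusted p = 0.017; higher in 6 of 6 libraries). Ccnd2 was lower, with medians of 147 and 127 CPM and a difference of -0.39 ± 0.12 (adjusted p = 0.022; lower in 5 of 6 libraries before and in 6 of 6 after scaling). The Ccnd1 call was lost with no filter on low genes (0.17, adjusted p = 0.082), without the 5% of cells with most UMIs (0.17, adjusted p = 0.052) and without Cyto-ID High M3 (0.18, adjusted p = 0.056). With cycling cells called after thinning each cell to 1000 UMIs and levels taken from all UMIs, it was 0.09 (adjusted p = 0.39) where the median of all genes was -0.18. With the levels thinned too it was -0.17 (adjusted p = 0.42) where that median was -0.64. The Ccnd2 call was lost with unscaled CPM (-0.22, adjusted p = 0.14), no filter (-0.42, adjusted p = 0.091) and summed UMIs (-0.28, adjusted p = 0.075). It was also lost without Cyto-ID High F2 (-0.38, adjusted p = 0.054), with cycling cells called on thinned cells (-0.72, adjusted p = 0.059) and with thinned levels (-1.83, adjusted p = 0.13). Ccnd3 (0.03, 95% interval -0.19 to 0.24), Cdkn1b (0.04, -0.16 to 0.24) and Cdkn2a (-0.02, -0.49 to 0.45) did not pass. Cdkn1b encodes p27, known to be held down after transcription by degradation of the protein, which these data do not measure. Cdkn1c, encoding p57, had a difference of 0.83 (0.14 to 1.52; adjusted p = 0.062), with 5 of 6 libraries higher in cycling cells before scaling and 4 of 6 after. Without Cyto-ID Low F2 it was 1.07 (adjusted p = 0.031) and without Cyto-ID High M3 1.02 (adjusted p = 0.043), and with unscaled CPM it was 0.96 (adjusted p = 0.032). Cdkn1c passed in only these 3 of 15 alternatives. Over all 15 its difference ran from 0.07 to 1.07, with an adjusted p of up to 0.94 in limma.

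Cycling cells were spread unevenly over the layers: they made up 3.84% to 20.2% of the basal range, 5.37% to 17.8% of the middle range and 1.38% to 4.59% of the differentiated range. The comparison was therefore repeated inside a range. Within the basal range, Cdkn2d was the 1 member of 10 that passed, at 1.71 ± 0.14 (adjusted p = 2.7e-05; 10.0% of 12166 genes passed, 5.33% higher and 4.68% lower), with 10.97 to 28.7 CPM in other and 37.2 to 104 CPM in cycling cells. After thinning it was 1.08 (adjusted p = 0.083), where the median of all genes was -0.89. Cdkn1a stood at 0.00 there (95% interval -0.22 to 0.23), with medians of 135 CPM in other and 142 CPM in cycling cells. Cdkn2b stood at -0.51 (-0.89 to -0.12; adjusted p = 0.098) and Ccnd2 at -0.93 (-1.56 to -0.30; adjusted p = 0.067). Ccnd1 was at 0.03 (-0.14 to 0.20). The other members were at 0.07 (Cdkn1b), 0.94 (Cdkn1c), -0.29 (Cdkn2a), 0.80 (Cdkn2c) and 0.26 (Ccnd3), with adjusted p-values of 0.14 to 0.75. Cyto-ID Low F6 had only 31 cycling cells in the basal range, and without it 4 members passed: Cdkn2d (1.72), Cdkn2c (1.30, adjusted p = 0.0013), Cdkn2b (-0.64, adjusted p = 0.0040) and Ccnd2 (-0.54, adjusted p = 0.00026). Cdkn1a was then at -0.08 (adjusted p = 0.60).

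Within the middle range, 4 members passed, 2 higher and 2 lower, against 12.7% of 12129 genes (5.88% higher and 6.79% lower). With cycling cells called on thinned cells 1 member passed, Cdkn2d, and with thinned levels none of these 4 did, while Cdkn2a (-2.50, adjusted p = 0.033) and Cdkn1c (-2.18, adjusted p = 0.0077) did, where the median of all genes was -1.79. With layers from mean ln values Cdkn2c was lost (0.97, adjusted p = 0.086) and Cdkn1c passed (1.22, adjusted p = 0.047). Cdkn2c (1.31 ± 0.27) and Cdkn2d (1.20 ± 0.24) were higher in cycling cells, and Cdkn2b (-0.50 ± 0.10) and Ccnd2 (-0.48 ± 0.09) lower, with adjusted p-values of 0.0060, 0.0046, 0.0041 and 0.0031. Cdkn1a was at -0.12 (-0.39 to 0.15), and passed at -0.28 (adjusted p = 0.022) without Cyto-ID Low F6. Cdkn1b (0.10), Cdkn1c (0.47), Cdkn2a (-0.13), Ccnd1 (-0.02) and Ccnd3 (-0.12) had adjusted p-values of 0.66 to 0.88. Among cycling cells, 14 of Cyto-ID Low F6 and 41 to 78 of the other libraries fell in the differentiated range, too few in 1 library for a fit; Cdkn1a stood at 175 to 403 CPM there and Cdkn2b at 49.1 to 197 CPM.

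Over the layers of other cells, Cdkn1a and Cdkn2b rose and Ccnd1 and Ccnd2 fell from the basal to the differentiated range, in 6 of 6 libraries each. In all, 8 of 10 members passed, 6 higher and 2 lower, where 59.0% of 12121 genes passed (30.5% higher and 28.5% lower). The members' median log2 difference was 0.41, against -0.02 over all genes. Cdkn1a stood at 99.8 to 186 CPM in the basal range (median 135 CPM) and at 267 to 384 CPM in the differentiated range (median 371 CPM). The ranges did not overlap, and the log2 difference was 1.84 ± 0.08 (adjusted p = 1.2e-09). Cdkn2b stood at 46.7 to 76.8 CPM in the basal range (median 52.8 CPM), at 50.7 to 95.3 CPM in the middle range and at 125 to 346 CPM in the differentiated range (median 209 CPM). Its log2 difference was 2.32 ± 0.12 (adjusted p = 4.7e-09), the largest of the 10 members, and most of the rise lay between the middle and the differentiated range.

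**Figure D2:**
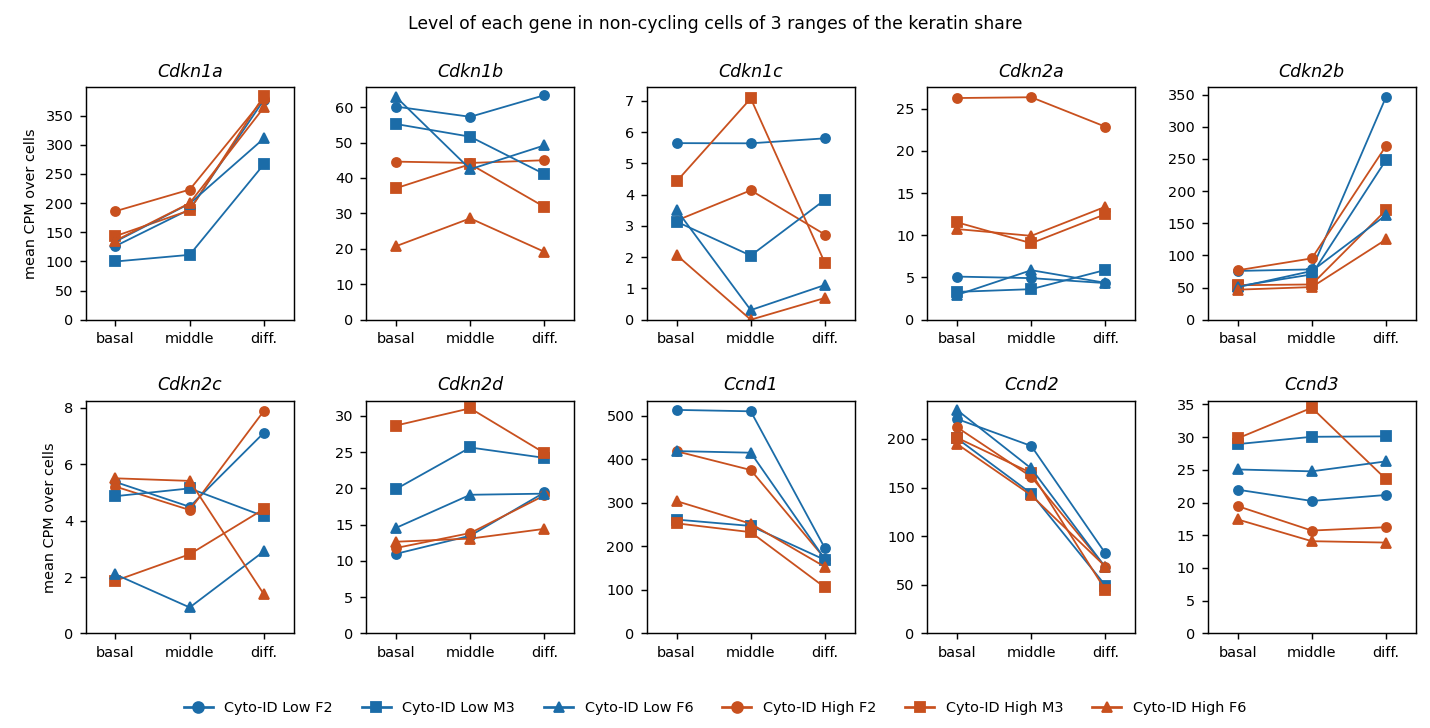
Mean CPM over cells (linear axis from 0) of each gene in other cells (those that do not meet the cycling rule) of the basal, middle and differentiated (diff.) ranges, 1 line per library, coloured by Cyto-ID group. Cdkn2b climbs from at most 95.3 CPM in the middle range to at least 125 CPM in the differentiated range, while Ccnd2 descends in every library.

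Ccnd2 fell from 195 to 230 CPM in the basal range (median 207 CPM) to 44.5 to 82.2 CPM in the differentiated range (median 68.0 CPM), without overlap. Its log2 difference was -1.24 ± 0.10 (adjusted p = 3.3e-07). Ccnd1 fell from 253 to 513 CPM (median 361 CPM) to 105 to 195 CPM (median 169 CPM), also without overlap, at -0.64 ± 0.09 (adjusted p = 3.3e-05). Ccnd3 did not follow them: its medians were 23.5 and 22.4 CPM, and its scaled difference was 0.35 ± 0.11 (adjusted p = 0.019). The direction of Ccnd3, like that of Cdkn1b (0.33 ± 0.10, adjusted p = 0.013), hangs on the scaling. With unscaled CPM the median over all genes moved from -0.02 to -0.45 and 1841 of the 8615 genes that passed were higher, against 3701 of 7157. Unscaled, Ccnd3 stood at -0.14 and Cdkn1b at -0.17, and neither passed. Cdkn2d rose by 0.82 ± 0.14 (adjusted p = 0.00030) and Cdkn2a by 0.63 ± 0.15 (adjusted p = 0.0028); their unscaled values were 0.34 (adjusted p = 0.036) and 0.19 (adjusted p = 0.30). After thinning Cdkn2d was at 0.39 (adjusted p = 0.052) and Cdkn2a at 0.59 (adjusted p = 0.096). The Cdkn2a call was also lost with summed UMIs (0.32, adjusted p = 0.057) and with cells of at least 1000 genes (0.18, adjusted p = 0.53). Cdkn2c (0.48, -0.12 to 1.08) and Cdkn1c (-0.11, -0.61 to 0.39) did not pass. Cdkn2c did without Cyto-ID High F6, at 0.83 (adjusted p = 0.0030), and with layers from mean ln values, at 1.01 (adjusted p = 0.00052). It passed in only these 2 of 16 alternatives, over which it ran from 0.08 to 1.01, with an adjusted p of up to 0.78 in limma. The Ccnd3 call was lost without Cyto-ID Low M3 (0.31, adjusted p = 0.063), without Cyto-ID Low F6 (0.30, adjusted p = 0.056), without the 5% of cells with most UMIs (0.29, adjusted p = 0.051) and after thinning (0.27, adjusted p = 0.16). That of Cdkn1b was lost after thinning (0.30, adjusted p = 0.070) and with layers from mean ln values (0.24, adjusted p = 0.075).

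Lists of genes from the same pathways were read from the same fits. Of 20 partners at the G1 to S step, 12 were higher and 1 lower in cycling than in other cells, with a median log2 difference of 0.74, where 14.8% of all genes were higher and 18.4% lower and the median was -0.04. The largest were Ccna2 (4.28), the A-type cyclin of S phase, Cks1b (2.84), a Cdk-binding subunit, and E2f8 (2.28), an E2F repressor. Cycling cells were chosen by their expression of 4 cycling markers, so this choice partly fixes a rise of partners expressed along with those markers. From the basal to the differentiated range, 4 of the 19 tested were higher and 9 lower, with a median of -0.40, where 30.5% of all genes were higher and 28.5% lower and the median was -0.02, led by E2f1 (-1.68), Cks1b (-1.12) and Cdk4 (-1.02). Of 20 p53 targets, 10 were higher and 4 lower in the differentiated range, with a median of 0.25; Plk3 (1.96) and Btg2 (1.73) rose with Cdkn1a, but the death receptor gene Fas fell (-2.12). In cycling cells 4 were higher and 7 lower, with a median of -0.16, led by Plk3 (-1.57), Plk2 (-1.02) and Pmaip1 (-0.89). Of 9 TGF-beta targets, 2 were higher and 5 lower in the differentiated range, with a median of -0.30. Tgfbi (-2.59) and Ccn2 (-2.05) were among the lower ones. In cycling cells 6 were lower and none higher, with a median of -0.25; Ccn2 (-0.96) and Skil (-0.64) were among them.

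**Figure D3:**
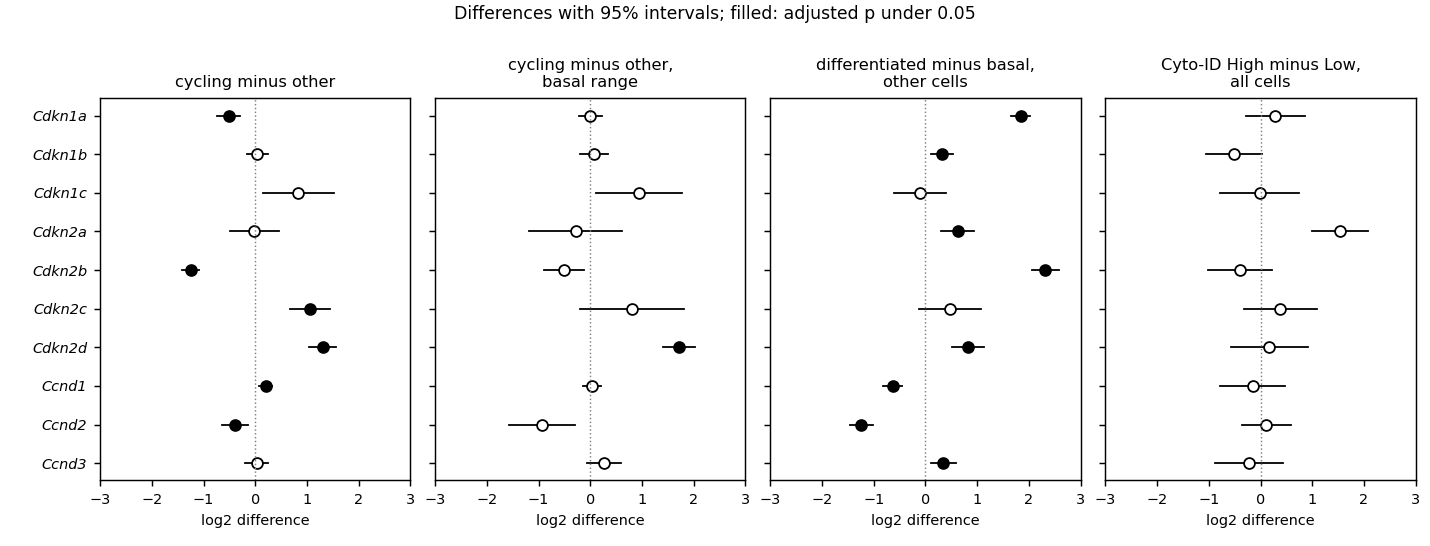
Log2 differences (points) with 95% intervals (bars) of the 10 genes in 4 comparisons, from limma on 6 libraries; filled points passed an adjusted p of 0.05. In the comparison of cycling with other cells, Cdkn1a passes as lower over all layers together but lies at 0.00 within the basal range. None of the 10 passes between the Cyto-ID groups in this fit, which has no replicate block (with it, Cdkn2a passes).

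Between organoids of Cyto-ID High and Cyto-ID Low founders, none of the 10 members passed in all cells, in cycling cells or in other cells. Of all genes, 0.163% (19 of 11645), 0.0602% (7 of 11634) and 0.138% (16 of 11573) passed, and 941, 770 and 753 had an unadjusted p under 0.05. Cdkn2a came nearest. It stood at 4.73, 4.60 and 4.59 CPM in Cyto-ID Low F2, M3 and F6 and at 23.3, 11.2 and 11.2 CPM in Cyto-ID High F2, M3 and F6. Every Cyto-ID High library was above every Cyto-ID Low library, a separation in one direction or the other that 12.6% of the 11645 genes and 2 of the 10 members showed, and Cyto-ID High F2 stood apart from the other 2 of its group. The Cdkn2a values rest on 184, 237 and 40 UMIs in Cyto-ID Low F2, M3 and F6 and on 1230, 157 and 109 UMIs in Cyto-ID High F2, M3 and F6. The means were 4.64 ± 0.078 and 15.2 ± 6.99 CPM (SD, n = 3 each), and the log2 difference was 1.54 ± 0.24 (SE, adjusted p = 0.060 in limma). With 3 libraries and so few UMIs, the small SD of Cyto-ID Low is a rough value. With the replicate labels as a block, the difference of 1.54 had an adjusted p of 0.036 in limma, and 0.550% of genes passed. Pairing by these labels is not stated, and it was weak for F6 (correlation of deviations from group means 0.147). Over all cells the unadjusted p of Cdkn2a hardly moved between the 2 limma fits, from 1.2e-04 to 1.5e-04. It fell from 1.6e-04 to 6.4e-05 over other cells and from 1.3e-04 to 1.3e-05 in their basal range. In their differentiated range it went from 1.7e-04 to 1.6e-04. Over all cells without Cyto-ID High F2 the difference was 1.30 (adjusted p = 0.14 without the block).

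In each layer of other cells the Cdkn2a groups did not overlap (as for 12.5%, 12.3% and 10.4% of all genes in the basal, middle and differentiated range), and with all cells and libraries none of the 3 differences passed without the block. In the basal range the libraries stood at 5.11, 3.30 and 2.93 CPM in Cyto-ID Low F2, M3 and F6 and at 26.3, 11.5 and 10.7 CPM in Cyto-ID High F2, M3 and F6, with a log2 difference of 1.90 ± 0.32 (adjusted p = 0.055, and 0.0065 with the replicate block; 0.223% of genes passed without and 0.762% with it). Without the block it passed at 2.06 without Cyto-ID High M3 (adjusted p = 0.025) and at 2.19 with cells of at least 1000 genes (adjusted p = 0.025). It also passed at 1.91 without the 5% of cells with most UMIs (adjusted p = 0.042) and at 1.85 with cycling cells called on thinned cells (adjusted p = 0.034). With the block, these were 5 of 17 alternatives. Over all 17 the difference ran from 1.56 to 2.19, with an adjusted p of up to 0.35 in limma. The middle range gave 1.49 ± 0.35 (adjusted p = 0.27; 0.065 with the block; 0.215% and 0.681% of genes passed) and the differentiated range 1.55 ± 0.27 (adjusted p = 0.066; 0.035 with the block; 0.209% and 0.665% of genes passed). Over all other cells it was 1.62 ± 0.26 (adjusted p = 0.070; 0.017 with the block, where 0.830% of genes passed). In cycling cells the groups did not overlap either, at 4.78, 6.64 and 10.4 CPM in Cyto-ID Low F2, M3 and F6 and at 12.3, 12.3 and 11.4 CPM in Cyto-ID High. There the difference was 0.90 ± 0.37 (adjusted p = 0.73; 0.47 with the block, where 0.0946% of genes passed), on 4 to 144 UMIs per library. After thinning to 1000 UMIs it was -1.13 (adjusted p = 0.83), where the median of all genes was 0.52. The cycling cells of Cyto-ID High F2 were at 12.3 CPM while its other cells were at 25.3 CPM. The test of whether the difference between cycling and other cells differed between groups gave -0.74 (-1.60 to 0.12; adjusted p = 0.88), and 0 of 12081 genes passed it (525 with an unadjusted p under 0.05). The other members lay between -0.22 and 0.58 in it (adjusted p of 0.88 to 0.97).

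**Figure D4:**
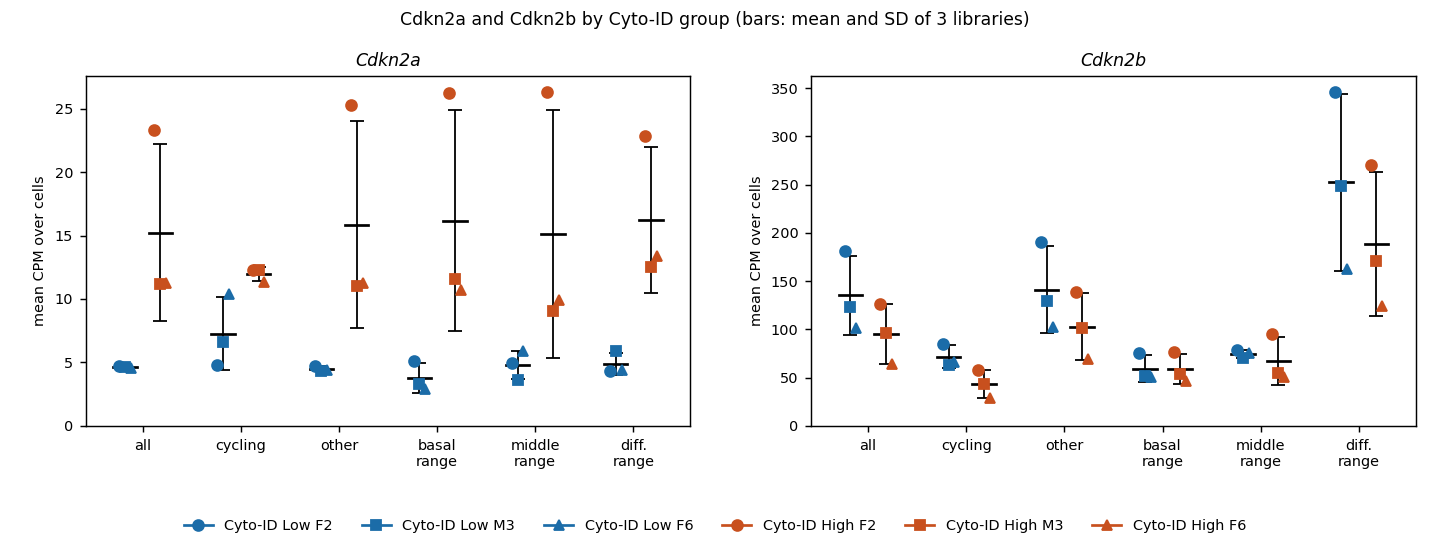
Mean CPM over cells (linear axis from 0) of Cdkn2a and its neighbour Cdkn2b in 6 classes of cells; the 3 right-hand classes are layer ranges of other cells. Points are libraries, and bars give the mean and SD of 3. Cdkn2a is higher in every Cyto-ID High library over all cells (11.2 to 23.3 against 4.59 to 4.73 CPM), whereas the Cdkn2b groups overlap in all classes but the cycling cells.

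Cdkn2b, the neighbour of Cdkn2a, did not stand apart in the same way. Over all cells it was at 181, 123 and 102 CPM in Cyto-ID Low F2, M3 and F6 and at 126, 95.9 and 64.0 CPM in Cyto-ID High F2, M3 and F6, and the groups overlapped (log2 difference -0.40, 95% interval -1.02 to 0.22). Under each replicate label Cdkn2b was lower in Cyto-ID High, and with the replicate block the interval was -0.82 to 0.02 (adjusted p = 0.33 in limma). In cycling cells it stood at 85.2, 63.3 and 66.4 CPM in Cyto-ID Low and at 57.6, 43.7 and 28.7 CPM in Cyto-ID High. These did not overlap, but the difference of -0.54 (-1.12 to 0.03; adjusted p = 0.76) did not pass. Cdkn1b was lower in Cyto-ID High, without overlap: 61.0, 49.8 and 51.3 CPM in Cyto-ID Low F2, M3 and F6 against 45.7, 38.0 and 23.4 CPM in Cyto-ID High. Its difference of -0.52 (-1.06 to 0.02) had an adjusted p of 0.62, and of 0.30 with the replicate block. Cdkn1a in the basal range of other cells was at 126, 99.8 and 134 CPM in Cyto-ID Low F2, M3 and F6 and at 186, 143 and 136 CPM in Cyto-ID High, again without overlap and without passing (0.53, 0.03 to 1.02; adjusted p = 0.85).

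Groups did not overlap for 14.9% of all genes in cycling cells and for 12.5% in the basal range of other cells, beside 2 and 3 of the 10 members, so these counts say nothing particular of the members. The 3 cyclins and the remaining inhibitors overlapped between the groups over all cells. The differences were 0.29 (-0.28 to 0.85) for Cdkn1a, -0.02 (-0.78 to 0.75) for Cdkn1c, 0.39 (-0.32 to 1.09) for Cdkn2c, 0.17 (-0.58 to 0.91) for Cdkn2d, -0.15 (-0.79 to 0.48) for Ccnd1, 0.11 (-0.37 to 0.59) for Ccnd2 and -0.22 (-0.87 to 0.43) for Ccnd3. These intervals leave room for changes in either direction. In cycling cells the members besides Cdkn2a and Cdkn2b lay between -0.27 (Ccnd3) and 0.81 (Cdkn2c), with adjusted p-values of 0.76 to 0.95. In other cells the members besides Cdkn2a lay between -0.54 (Cdkn1b) and 0.32 (Cdkn1a), with adjusted p-values of 0.78 to 0.99. By layer these ran from -0.69 (Cdkn1b) to 0.53 (Cdkn1a) in the basal, from -0.23 (Ccnd1) to 0.51 (Cdkn1a) in the middle and from -0.68 (Cdkn1b) to 0.30 (Cdkn1a) in the differentiated range. Of the 3 pathway lists, no gene passed in all cells, with medians of 0.21 for the G1 to S partners, 0.14 for the p53 targets and -0.30 for the TGF-beta targets, against 0.00 over all genes.

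The share of cycling cells, against which these levels stand, was 8.74%, 10.6% and 3.37% in Cyto-ID Low F2, M3 and F6 and 15.4%, 9.41% and 12.02% in Cyto-ID High. The means of 7.58% ± 3.76 and 12.3% ± 2.99 (SD, n = 3 each) gave p = 0.20 in a two-sided exact permutation test, where 3 against 3 cannot go under 0.10. Thinned to 1000 UMIs per cell, which left out 17 to 56 cells of each Cyto-ID Low and 10 to 115 of each Cyto-ID High library, the shares were 2.46% ± 1.27 and 4.48% ± 0.564, and the groups did not overlap (exact permutation p = 0.10, the smallest possible).

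Genes with the most similar pattern were sought over the 35 compartments (library by layer range by cycling state) that held at least 20 cells, by Pearson's r of log2 CPM plus 1 against 7028 or 7029 genes of at least 10 CPM. The compartments share libraries and depth, so these values are a description. Cdkn2b was most like Dusp4 (0.96), a phosphatase of MAP kinases, Ifi209 (0.95) and AA467197 (0.95). Cdkn2d was most like Tubg1 (0.92), the gamma-tubulin of centrosomes, Cby1 (0.87) and Jpt1 (0.87). Ccnd1 was most like Actn1 (0.92), Tpm1 (0.92) and Lima1 (0.90), all encoding proteins of actin filaments. Cdkn1a was most like Tmprss11e (0.82), Rab11fip1 (0.82) and Sprr1a (0.81), the last a cornified envelope precursor. Ccnd2 was most like Crim1, Clstn1 and Adm (0.81 to 0.82), and Cdkn1b most like Fam114a2 (0.87), Pdcd7 (0.83) and Ppp4r2 (0.82). Ccnd3 went with Ybx1 (0.84), Nans (0.84) and Nfkbia (0.83), Cdkn2c with Ciao2a (0.80), Dbf4 (0.79), the activator of Cdc7, and Zcchc8 (0.78), and Cdkn2a less closely with Abca12 (0.74), Nipal1 (0.72) and Gsta2 (0.71). Among the members themselves, Cdkn1a and Cdkn2b went together (0.68) and Cdkn1a and Ccnd2 apart (-0.63). The neighbours Cdkn2a and Cdkn2b showed no correlation over these unscaled compartments (-0.01), which mix layers, cycling states and Cyto-ID groups. After scaling, both rose from the basal to the differentiated range (0.63 and 2.32). Unscaled, Cdkn2a was higher in the differentiated range in only 4 of 6 libraries, and Cdkn2b in 6 of 6.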

How the data were processed

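The 6 libraries (3 Cyto-ID Low, 3 Cyto-ID High) were made with a 10x 3′ v3.1 kit, per the labels' protocols. The submitters' processing notes name Cell Ranger 6.0.0, Seurat 4 and the builds mm10 and GRCm38. The deposited tables hold natural log values, ln(1 + UMIs per 10000 of the cell), which was read from the values; the UMIs were recovered from them as whole numbers within 1e-06, and the largest mitochondrial share was 10.0%. Cells with under 500 genes were left out, and no doublets were removed. Library totals ran from 8231527 to 48873796 UMIs in kept cells.

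For every class of cells in a library, each gene's CPM was taken as the mean of its values in single cells. TMM factors (trims of 30% on log ratios and 5% on levels) scaled these means. To them limma 3.58.1 (R 4.3.3, mean-variance trend) was fitted as log2(CPM + 1). This test was chosen because the deposited unit is not counts, and no count model was fitted to the recovered UMIs. Differences of log2(CPM + 1) understate changes of low genes. A gene was tested where 3 or more libraries reached 1 CPM, with Benjamini-Hochberg adjustment over all tested genes. Comparisons within libraries had the library as a block. Code was tested on simulated data. Whether the labels F2, M3 and F6 pair the libraries was checked: deviations from group means of libraries with the same label correlated at 0.761, 0.577 and 0.147 over all cells. Cyto-ID Low F2 and Cyto-ID High F6, of different labels, correlated at 0.174, so the pairing of F6 is not borne out. Results whose call the replicate block changes are given with it. In cycling cells the same-label values were 0.399, 0.339 and 0.072, and Cyto-ID Low F2 with Cyto-ID High F6 gave 0.151.

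All 10 genes were read in every comparison, by value or within the range given for the others. Of each list, the 3 genes past the threshold with the largest difference are named, except 1 TGF-beta target that is not reported here, and for each gene of at least 5 CPM the 3 most correlated genes. The genes and the lists of G1 to S partners, p53 targets and TGF-beta targets were chosen with earlier results of these data known. Gene positions are from GENCODE, upstream windows from RefSeq. Alternatives covered scaling, pseudocount (0.1), filters, summed UMIs, thinning to 1000 UMIs, cells with at least 1000 genes, the 5% of cells with most UMIs left out, 3 cycling markers, other layer scores, the replicate block and each library left out.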

Additional observations from a re-analysis of the deposited data

How the results depend on the processing

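The number of members called between Cyto-ID groups over all cells rose from 0 to 1, Cdkn2a, with the replicate block, with cells of at least 1000 genes and without the 5% of cells with most UMIs. Over other cells it rose from 0 to 1, again Cdkn2a, with the replicate block, with thinned cells, with at least 1000 genes, and with cycling cells called on thinned cells, an alternative chosen after seeing the data. The replicate block changed no other call of a member except that of Cdkn2a in the basal and differentiated ranges. Of the 6 members called between cycling and other cells, 3 passed after thinning to 1000 UMIs, which left 29 cycling cells in Cyto-ID Low F6 and moved the median of all genes to -0.64. There Ccnd1 turned to -0.17 (adjusted p = 0.42). Within the basal range the number of members called went from 1 to 0 after thinning, to 2 with at least 1000 genes and to 3 with layers from mean ln values, and with each library left out it ran from 1 to 4. Within the middle range, whose alternatives, like those of the Cyto-ID comparisons within layers, were added after seeing the data, thinning put Cdkn1c at -2.18 (adjusted p = 0.0077), Cdkn2a at -2.50 (adjusted p = 0.033) and Cdkn2c at -1.90 (adjusted p = 0.071), where the median of all genes was -1.79. From the basal to the differentiated range 5 members passed with unscaled CPM and 4 after thinning, against 8; unscaled, Cdkn1b was at -0.17 and Ccnd3 at -0.14. The cause of these changes was not tested. Cdkn1a and Cdkn2b kept their direction and call in every alternative over all cycling cells and over the layers, and so did Cdkn2d over all cycling cells. The difference in cycling shares was 4.70 percentage points, 2.60 to 6.21 with each library left out, 13.3 with cells of at least 1000 genes, 2.03 after thinning and 2.47 with 3 markers (exact permutation p = 0.10, 0.10 and 0.60). The exact permutation p of this difference was 0.50 with the replicate block, where 0.25 is the smallest possible, while 3 against 3 allows 0.10. The filter of 1000 genes acted unevenly. It kept 998 of 4484 cells in Cyto-ID High F6, whose cycling share became 33.5%, 1989 of 4483 in Cyto-ID High M3 and 1560 of 2667 in Cyto-ID Low F6. In Cyto-ID Low F2 it kept 3329 of 3547. The Cdkn2a calls with this filter rest on the same cells. Depth limits the members of few UMIs, Cdkn1c and Cdkn2c, the Cdkn2a value of Cyto-ID Low F6 (40 UMIs over all kept cells) and every value from the 90 cycling cells of Cyto-ID Low F6.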
